A study of Mus musculus with 14 samples.

Results

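The comparison described here asks whether a high-fat diet changed the same genes by the same amount in 2 white fat depots of the mouse. It uses all 12 white adipocyte libraries of the series, out of 14 libraries in all; the other 2 are from brown fat and entered no test. The white libraries fall into 4 groups of 3: epididymal (visceral, labelled EPI) and inguinal (subcutaneous, labelled SUB) adipocytes, each from mice on a high-fat diet (HFD, Research Diets D12492) or on regular chow, called the normal diet here (ND). All mice were males on the C57BL/6 background with no transgene named, and the diets ran for 16 weeks from weaning at 3 weeks of age. Tissue was digested with collagenase for 20 min, the floating fat-cell layer was taken, and each library is poly(A) RNA from tissue pooled over 3 to 5 mice, so a replicate is a pool and not an animal. The labels number the libraries of each group 0, 1 and 2 and do not say whether both depots of a library number came from the same mice.

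White adipocytes store triglyceride and secrete hormones such as leptin, and each depot keeps a developmental identity of its own, seen in the homeobox genes it expresses. In long obesity the epididymal pad of the mouse is known for dying adipocytes ringed by macrophages that take up lipid, while the inguinal pad is known to go on expanding with less of this. A fat pad also holds a dense capillary bed of endothelial cells and pericytes, preadipocytes, and, in the inguinal pad, a lymph node, and fragments of any of these can stay with a floating layer.

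For each gene the diet effect of a depot is the mean log2(FPKM + 0.5) of its 3 high-fat libraries minus that of its 3 normal-diet libraries. The interaction is the epididymal diet effect minus the inguinal one: above 0 it means that the gene moved up more, or down less, in epididymal adipocytes. FPKM is the deposited expression value, fragments mapped, scaled to gene length and library size; adding 0.5 shrinks the differences of genes with low values. A call is a Benjamini-Hochberg adjusted p under 0.05 in limma over the 14959 genes with at least 0.5 FPKM in at least 3 of the 12 libraries. The values cannot be turned back into reads, so depth is unknown and all errors are from the spread between libraries. In bulk RNA of this kind, fewer cells of a type and less RNA per cell cannot be told apart.

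The libraries carried their depot and cell-type markers. The adipocyte hormone gene Adipoq lay between 919 and 2386 FPKM in all 12 libraries, Tbx15, a subcutaneous patterning factor, between 2.58 and 5.71 in the 6 inguinal libraries and at 0.196 or below in the 6 epididymal ones. Of 8 epididymal epithelium markers none reached 0.5 FPKM in 3 libraries, but epididymal normal-diet library 2 held Crisp1 at 38.3, Spink8 at 13.5 and Cst8 at 2.14 FPKM, with Crisp1 at 1.37 in epididymal high-fat library 0 and at 0.0508 or below in the other 10 libraries; their part in the results was not tested. Replicates ranked genes alike in the epididymal high-fat group (Spearman's rho 0.978 to 0.98 over genes), the epididymal normal-diet group (0.95 to 0.971) and the inguinal high-fat group (0.961 to 0.965), and less so in the inguinal normal-diet group (0.851 to 0.901). That group holds libraries that stand apart. The summed FPKM of 15 B lymphocyte markers was 979, 108 and 1007 in inguinal normal-diet libraries 0, 1 and 2 and 23.7 to 43.8, 11.4 to 30 and 12.2 to 26.2 in the epididymal high-fat, epididymal normal-diet and inguinal high-fat groups, and that of 16 T lymphocyte markers was 234, 39.7 and 774 against 3.81 to 12.5 in the other 9 libraries. Library 1 of the group is thus the lowest of its 3 and still above every library of the other groups. Mitochondrial mRNA took 52.1, 20.6 and 60.7% of coding FPKM in these 3 libraries, against 26.9 to 37.0% in the 6 high-fat libraries and 40.3 to 66.7% in the epididymal normal-diet group. Counts below are therefore also given without inguinal normal-diet libraries 0 and 2 (10 libraries, 1 of them the whole inguinal normal-diet group, with the spread taken from the other groups) and with a lymphocyte level, the mean over 31 B and T cell genes, as a covariate. The level was 0.968 to 4.46 in the 3 inguinal normal-diet libraries and -1.37 to -0.555 in the other 9, so it largely overlaps with that group. A call can therefore be lost with the covariate although the interaction is not smaller. Some of the named genes were chosen because they passed both the fit without inguinal normal-diet libraries 0 and 2 and the fit with the covariate. Their calls there are a description and no support.

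**Figure D1:**
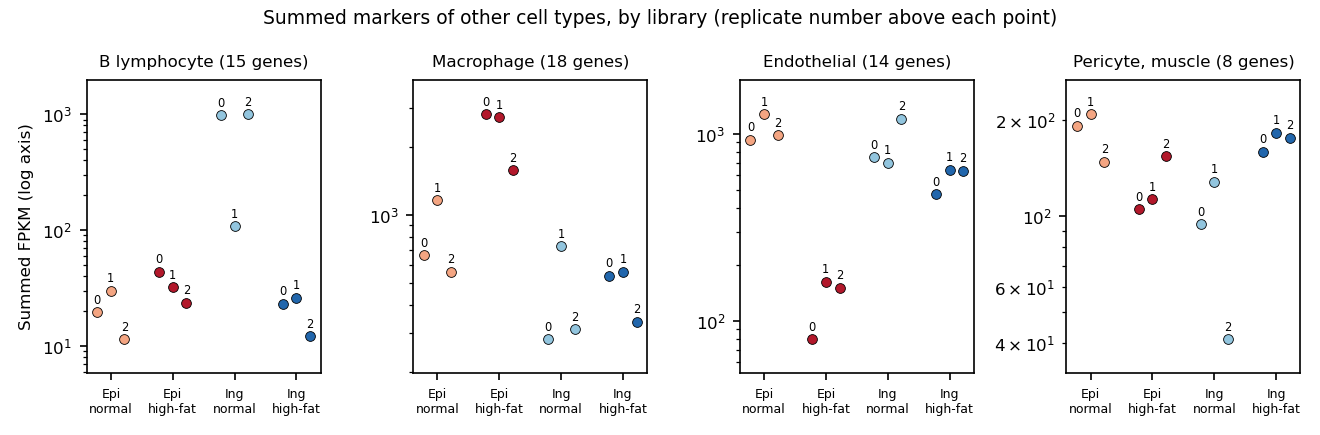
Summed FPKM (log axis) of the markers of 4 other cell types in each library, grouped by depot (Epi, epididymal; Ing, inguinal) and diet; the digit above a point is its library number. B lymphocyte sums reach 979 and 1007 in inguinal normal-diet libraries 0 and 2; macrophage sums are highest and endothelial sums lowest in the 3 epididymal high-fat libraries.

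The interaction was called for 1080 of 14959 genes (7.22%; 3295 had an unadjusted p under 0.05). It was higher in epididymal adipocytes for 718 genes (4.8%) and lower for 362 (2.42%); 699 and 353 of these differed by at least 2-fold. Over all genes tested the median interaction was 0.07 on the log2 scale. The diet effect itself was called higher for 1818 genes (12.2%) and lower for 1100 (7.35%) in epididymal adipocytes, and higher for 1391 (9.3%) and lower for 1523 (10.2%) in inguinal ones. The split between higher and lower interactions depends on how libraries are scaled: it was 657 to 516 with TMM factors, 573 to 605 after quantile normalization and 549 to 607 after rescaling to coding genes outside the mitochondrial genome, settings that put the median of all genes between -0.09 and -0.03. The total of 1080 fell to 433, 446, 592, 615, 672, 597 and 506 calls without epididymal high-fat library 0 or 1, epididymal normal-diet library 0 or 2, or inguinal high-fat library 0, 1 or 2, and rose to 2627 without inguinal normal-diet library 1. Without inguinal normal-diet libraries 0 and 2 it was 753 (5.03%), and with the lymphocyte covariate 191 (1.28%). Of the higher and lower calls, 314 and 196 remained called in the first of these fits and 42 and 81 in the second.

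The 2 directions of interaction were made up differently. Of the 718 higher calls, 305 were genes that fell in inguinal adipocytes with no call in epididymal ones, 279 rose in epididymal adipocytes with no inguinal call, 71 rose in epididymal and fell in inguinal adipocytes, 30 rose in both, more so in epididymal adipocytes, 3 fell in both, and 30 had no call in either depot. The median higher call had an epididymal effect of 1.10 and an inguinal effect of -1.09. Of the 362 lower calls, 249 fell in epididymal adipocytes with no inguinal call, 55 rose in inguinal adipocytes with no epididymal call, 28 fell in both, more so in epididymal adipocytes, 13 rose in both, 12 fell in epididymal and rose in inguinal adipocytes, and 5 had no call in either depot. The median lower call had an epididymal effect of -1.87 and an inguinal effect of 0.10. Of the 305 genes that fell in inguinal adipocytes alone 90 were still called without inguinal normal-diet libraries 0 and 2, of the 279 that rose in epididymal adipocytes alone 139, and of the 249 that fell in epididymal adipocytes alone 149. In 69.1% of the higher calls inguinal normal-diet libraries 0 and 2 both had a value above that of library 1, against 30.2% of all genes tested and 31.8% of the lower calls.

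**Figure D2:**
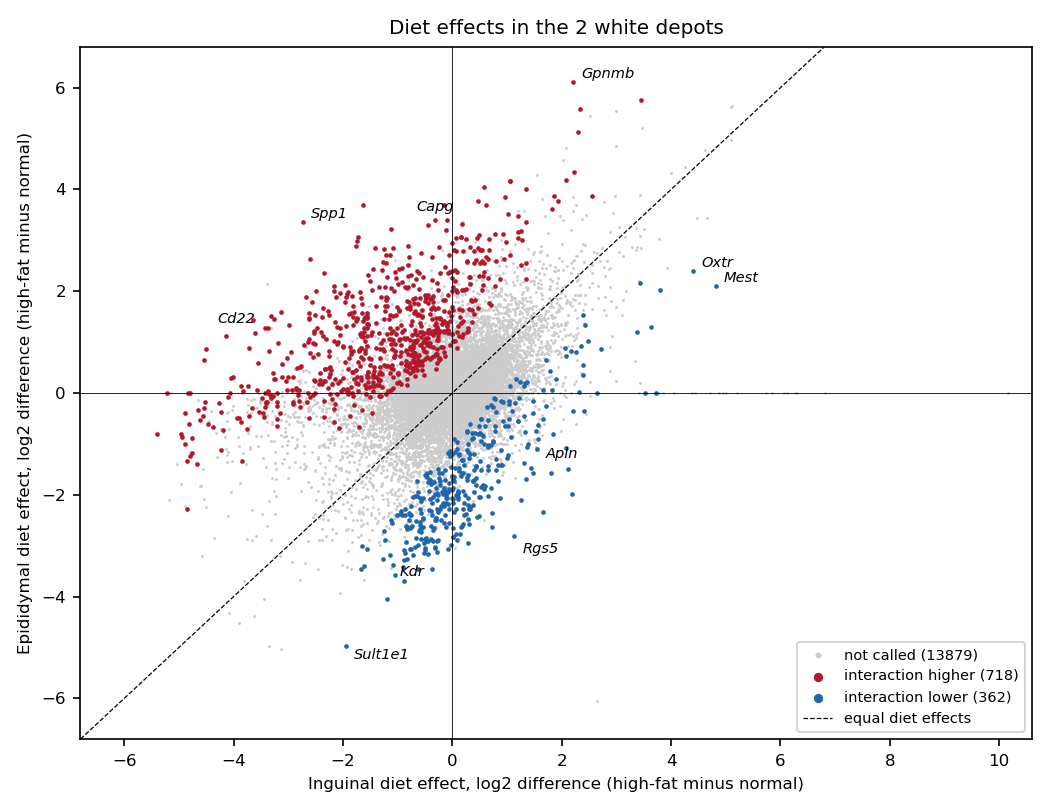
Each point is a gene tested, with its inguinal diet effect on the x axis and its epididymal diet effect on the y axis (log2 difference, high-fat minus normal diet); red and blue points are the 718 higher and 362 lower interaction calls and the dashed line marks equal effects. The blue points lie mostly below 0 on the y axis and near 0 on the x axis, while many red points lie left of 0 on the x axis.

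Endothelial genes made the most uniform block of lower interactions. Of 14 endothelial markers 13 were called lower and none higher, all but Vwf, with a median interaction of -2.19 (median epididymal effect -2.77, inguinal -0.64). The same 13 fell with diet in epididymal adipocytes, whereas in inguinal adipocytes 3 fell (Vwf, Flt1 and Eng). Their summed FPKM was 931, 1277 and 986 in the epididymal normal-diet libraries and 79.5, 162 and 150.3 in the epididymal high-fat ones, against 749, 700.0 and 1205 and 476, 643 and 634 in the inguinal normal-diet and high-fat libraries. The epididymal diet groups were far apart, and the inguinal ones lay close together without overlap.

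Kdr (ENSMUSG00000062960, chr5:75932827-75979072 on GRCm38.p6), the main VEGF receptor of blood vessels, had 41.3, 47.6 and 41.2 FPKM in the epididymal normal-diet libraries and 2.54, 5.7 and 5.48 in the high-fat ones. In inguinal adipocytes it had 36, 33.5 and 41.5 FPKM on the normal diet and 17.3, 24.9 and 24.9 on the high-fat diet. The diets did not overlap in either depot, and the interaction was -2.45 ± 0.37 (SE; adjusted p = 0.0048). Gpihbp1, which carries lipoprotein lipase to the capillary surface, went from 165, 277 and 199 to 8.95, 26.8 and 26.7 FPKM in epididymal adipocytes. In inguinal adipocytes it had 124, 131 and 213 FPKM on the normal diet and 90.6, 128 and 137 on the high-fat diet, with overlap, and its interaction was -3.07 ± 0.55 (adjusted p = 0.0087, and 0.066 with the covariate). Notch4, a Notch receptor of endothelial cells, was the most precise of the group, at 12.6, 14.3 and 11.5 FPKM against 1.08, 1.29 and 1.5 in epididymal adipocytes. Its inguinal levels were 7.36, 6.52 and 8.44 and 7.37, 8.18 and 8.03 FPKM, fully interleaved, and its interaction -2.97 ± 0.26 (adjusted p = 0.00099). 

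Other named genes, many of them known from endothelium, had the same shape. Cldn5, a tight-junction protein, had an interaction of -2.84, Tie1, an endothelial receptor kinase, one of -2.34, the endothelial transcription factor Sox7 one of -2.83, the homeobox factor Meox2 one of -2.83, and the adhesion receptors Adgrf5 and Adgrl4 ones of -2.83 and -2.52. Cdh13, a cadherin that binds adiponectin, was at -2.98, and Btnl9, Lmo7, Cmtm8, Sept4, Bcl6b and Mecom were between -3.23 and -2.78. The interactions of these 13 genes had adjusted p-values between 0.0024 and 0.02. With the lymphocyte covariate Cdh13 and Mecom lost their calls (adjusted p = 0.11 and 0.11), at interactions of -3.68 and -2.41. None of the 13 had an inguinal call apart from Adgrl4. Adgrl4 and Cyyr1 fell in both depots, with diet effects of -3.42 and -3.57 in epididymal and -0.90 and -1.05 in inguinal adipocytes. Vwf, the exception, had an interaction of 0.54 (adjusted p = 0.61) and fell in inguinal adipocytes, with a diet effect of -1.58. Flt4, a lymphatic endothelial receptor, had -1.50 (adjusted p = 0.038) and was called in 2 of 12 fits that each left out 1 library. Of the 13 calls among the markers, 10 to 13 remained with each library left out, 5 with the lymphocyte covariate and 5 after rescaling outside the mitochondrial genome. Here and below, that rescaling uses a sum of which 1 feature, ENSMUSG00000093077, held 6.72 to 91.2%, so it depends largely on this feature. The median interaction of the 14 markers was -2.475 without inguinal normal-diet libraries 0 and 2 and -2.65 with the covariate.

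Part of the pericyte genes also fell in epididymal adipocytes: of 8 pericyte and smooth muscle markers tested 4 fell and 1 rose there, and 3 rose in inguinal adipocytes. Rgs5 (ENSMUSG00000026678, chr1:169655501-169695813), a regulator of G protein signalling that marks pericytes, fell from 93, 90 and 81.6 to 10.1, 14.3 and 12.3 FPKM in epididymal adipocytes. In inguinal adipocytes it rose from 40.1, 39.3 and 18.4 to 62.5, 71.1 and 70.2 FPKM. The diets were apart in both depots, in opposite order, with an interaction of -3.94 ± 0.37 (adjusted p = 0.00099; -3.59 without inguinal normal-diet libraries 0 and 2 and -3.21 with the covariate, both called). Kcnj8 and Abcc9, the pore and regulatory subunits of the vascular ATP-sensitive potassium channel, had interactions of -3.37 (adjusted p = 0.21 with the covariate) and -2.88. These 3 were the interaction calls among the 8 markers, all lower (median -1.70, and -0.71 without inguinal normal-diet libraries 0 and 2). Without inguinal normal-diet library 1 there were 5 lower calls, without library 2 there were 3 lower and 1 higher, and with the covariate 1 of each. Cspg4 did not follow: it rose in both depots, with diet effects of 2.18 in epididymal and 1.11 in inguinal adipocytes, and Acta2, smooth muscle actin, rose in inguinal adipocytes (1.81). The summed FPKM of the 8 markers was 94.4, 128 and 41 in inguinal normal-diet libraries 0, 1 and 2, lowest in library 2.

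Genes outside these lists crossed in the same way as Rgs5. Cox4i2, an isoform of a cytochrome c oxidase subunit, had 2.7, 6.41 and 9.35 FPKM in epididymal normal-diet libraries and 1.22, 2.41 and 1.44 in high-fat ones, and 1.44, 0.478 and 0.961 and 5.51, 6.16 and 5.13 in the inguinal normal-diet and high-fat libraries. Ndufa4l2, a mitochondrial protein related to NDUFA4, had 7.65, 11.1 and 15.6 and 2.53, 2.32 and 2.38 FPKM in epididymal adipocytes on the normal and high-fat diets, and 1.87, 3.68 and 0 and 5.67, 7.66 and 8.93 in inguinal ones. Both fell in epididymal and rose in inguinal adipocytes with no overlap, at interactions of -3.61 and -4.18 (adjusted p = 0.0052 and 0.013). With the lymphocyte covariate Cox4i2 was at -4.27 (adjusted p = 0.035) and Ndufa4l2 at -1.65 (0.38). Ppp1r14a, an inhibitor of myosin phosphatase in smooth muscle, and Aspn, a matrix proteoglycan, fell in epididymal adipocytes and had interactions of -3.99 and -3.36. Prnd, a prion-like protein, had -3.16 and rose in inguinal adipocytes (2.08). With the covariate these 3 were at adjusted p = 0.56, 0.25 and 0.25. Ndufa4l2, Ppp1r14a and Prnd were listed at 0 to 0.0759 FPKM in inguinal normal-diet library 2, so the size of their log2 differences depends on the pseudocount.

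**Figure D3:**
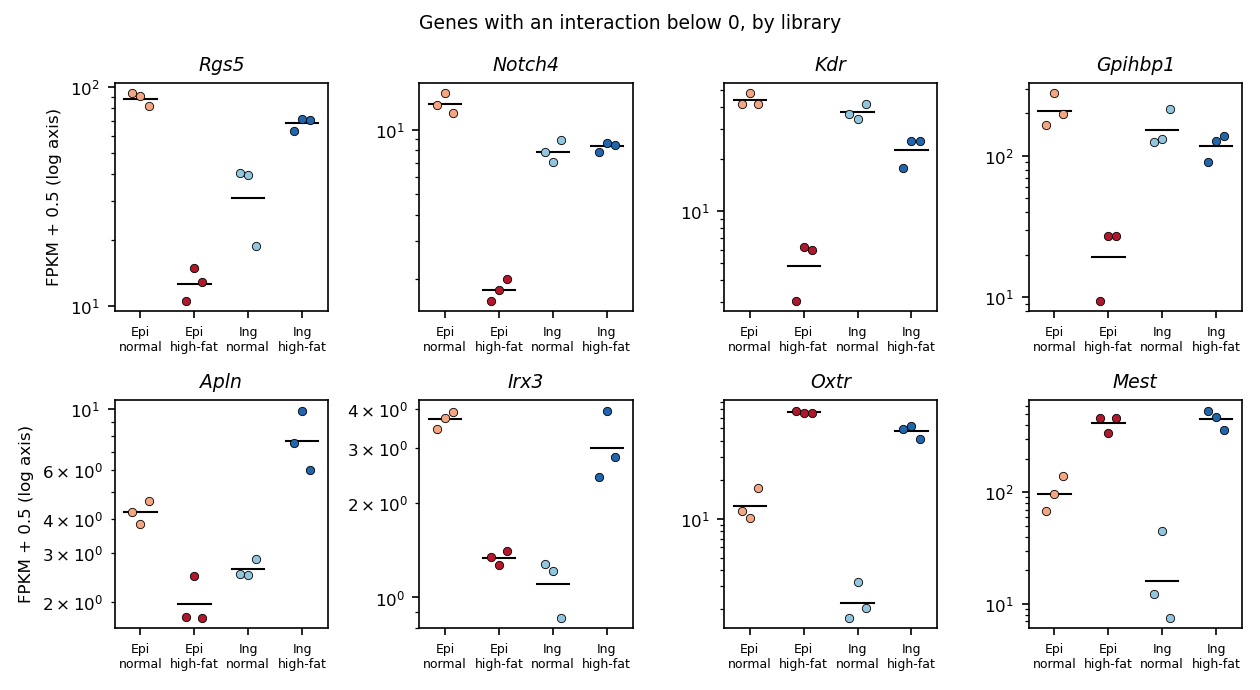
FPKM + 0.5 on a log axis for 8 genes with an interaction below 0, in each library of the 4 groups; the bar is the mean on the log scale. For Gpihbp1 only the epididymal high-fat libraries stand apart. Notch4 lies above all inguinal libraries in the epididymal normal-diet group and below them in the epididymal high-fat group. Rgs5, Apln and Irx3 cross over, and Oxtr and Mest rise in both depots.

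Depot patterning factors, most of them homeobox genes, formed another group of lower interactions. Of 18 depot patterning factors tested 7 were called lower and none higher: Hoxa5, Hoxa7, Hoxc8, Hoxc9, Hoxd8, Wt1 and Irx3 (median of the list -1.46, and -0.51 without inguinal normal-diet libraries 0 and 2, where 6 were called). Irx3 (ENSMUSG00000031734, chr8:91798511-91801654), a homeobox gene of the adipocyte lineage, fell from 2.97, 3.26 and 3.42 to 0.844, 0.773 and 0.913 FPKM in epididymal adipocytes. In inguinal adipocytes it rose from 0.781, 0.716 and 0.36 to 1.93, 3.46 and 2.31 FPKM, and its interaction was -2.91 ± 0.36 (adjusted p = 0.0026). Hoxd8 fell in epididymal adipocytes from 11.1, 11.7 and 10.3 to 4.24, 4.87 and 4.4 FPKM, with inguinal values of 5.57 to 7.45 and 6.71 to 9.21 FPKM on the 2 diets (interaction -1.52). Hoxa5 and Hoxa7 also fell in epididymal adipocytes (-1.44 and -2.07). Hoxc8 and Hoxc9 had no epididymal call and rose in inguinal adipocytes (1.30 and 1.19). Wt1, a factor of visceral fat and of mesothelium, went from 2.06, 2.23 and 2.5 to 0.289, 0.361 and 0.339 FPKM in epididymal adipocytes and was listed at 0 to 0.0354 in inguinal ones, so its interaction of -1.77 is an epididymal fall in a gene at or near 0 in the other depot. Tbx15 (0.13, adjusted p = 0.89) and Bmp3 (0.09, adjusted p = 0.92) had no interaction call, and Bmp3 rose in both depots (2.09 and 2.00). Without inguinal normal-diet library 1 the 7 calls became 12, with the lymphocyte covariate 2 of the 18 were called, and after rescaling outside the mitochondrial genome 1.

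Among 14 adipokine genes tested 1 had an interaction call, near the share over all genes tested (7.22%), and 5 had an unadjusted p under 0.05 by limma. With the covariate 2 were called higher and 1 lower. The called gene was Apln (ENSMUSG00000037010, chrX:48025146-48034853), which encodes the peptide hormone apelin. It fell from 3.72, 3.33 and 4.15 to 1.26, 1.98 and 1.24 FPKM in epididymal adipocytes and rose from 2.01, 2 and 2.36 to 7.07, 9.4 and 5.53 in inguinal ones, with no overlap in either depot. Its interaction was -2.65 ± 0.34 (adjusted p = 0.0028) and stayed called without inguinal normal-diet libraries 0 and 2 (-2.72) and with the covariate (-2.85). Lep, the leptin gene, rose in both depots (2.87 in epididymal and 3.38 in inguinal adipocytes), with an interaction of -0.51 ± 0.40 (adjusted p = 0.51). Adipoq was at -0.65 ± 0.50 (adjusted p = 0.51). Oxtr, the oxytocin receptor gene, rose in both depots but from a lower base in inguinal adipocytes. It went from 1.21, 2.71 and 1.54 to 48.4, 51.6 and 40.8 FPKM there, and from 11, 9.63 and 16.7 to 67.7, 64.5 and 64.7 FPKM in epididymal adipocytes, for an interaction of -2.01 ± 0.35 (adjusted p = 0.0084) that was called in all 12 leave-one-out fits and without inguinal normal-diet libraries 0 and 2, but not with the covariate (adjusted p = 0.22).

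Mest and Npr3 had the same shape among 12 fat expansion genes, the list of genes known to go up as fat cells enlarge. Mest, a hydrolase-like protein of expanding adipocytes, was at 11.7, 44.8 and 6.96 FPKM in inguinal normal-diet libraries and 539.7, 469 and 362 in high-fat ones. In epididymal adipocytes it was at 67.1, 96.1 and 139 and 462, 338 and 465 FPKM. Both depots reached similar levels on the high-fat diet and the inguinal one started lower, but the interaction of -2.71 ± 0.73 (adjusted p = 0.045) was called in 1 of the 12 leave-one-out fits and was -1.21 without inguinal normal-diet libraries 0 and 2. Npr3, the natriuretic peptide clearance receptor, had -1.09 (adjusted p = 0.024; 5 of 12 leave-one-out fits). Of these 12 genes, 6 rose in epididymal and 9 in inguinal adipocytes, and the median interaction was -1.02, against -0.05 without inguinal normal-diet libraries 0 and 2. Without inguinal normal-diet library 1 there were 6 calls, without epididymal high-fat library 2, epididymal normal-diet library 1 or inguinal normal-diet library 0 or 2 there was 1, and without any of the other 7 libraries 0. Sfrp5, a secreted Wnt antagonist, rose in both depots (3.44 and 4.66), with an interaction of -1.23 (adjusted p = 0.38). Sult1e1, the oestrogen sulfotransferase, fell in both depots, from 30.3, 33.7 and 25 to 0.627, 0.472 and 0.292 FPKM in epididymal adipocytes and from 4.87, 7 and 0.855 to 0.363, 0.533 and 0.568 in inguinal ones, with an interaction of -3.02 (adjusted p = 0.024, and 0.54 with the covariate). Npy, a neuropeptide gene, was listed at 0 in all 3 epididymal normal-diet libraries and at 4.13, 4.39 and 2.64 FPKM in the high-fat ones, and at 0 in 5 of the 6 inguinal libraries.

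On the higher side, several genes of lipid-laden macrophages rose more in epididymal than in inguinal adipocytes. Of 17 lipid-associated macrophage genes 7 had a higher interaction and none a lower one: Gpnmb, Lipa, Spp1, Itgax, Lgals3, Ctsk and Slc37a2 (median of the list 1.70; 8 calls without inguinal normal-diet libraries 0 and 2, 4 with the covariate and 2 after rescaling outside the mitochondrial genome). Of the 17 genes 14 rose in epididymal and 11 in inguinal adipocytes, and 1, Spp1, fell in inguinal ones. The summed FPKM of 18 general macrophage markers was 666, 1162 and 561 in epididymal normal-diet and 2820.0, 2725 and 1585 in epididymal high-fat libraries, and 280.1, 727 and 311 and 538, 562 and 336 in inguinal ones. Of these 18, Cd68, Fcgr1 and Tyrobp were called higher (median of the list 1.30, and 2.24 without inguinal normal-diet libraries 0 and 2). None was called after rescaling outside the mitochondrial genome, a scaling that depends largely on 1 feature. The part of macrophage content in the other higher interactions was not tested.

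Gpnmb (ENSMUSG00000029816, chr6:49036518-49058182), a transmembrane glycoprotein of lysosome-rich macrophages, went from 2.06, 4.62 and 5.15 to 341, 340.2 and 208 FPKM in epididymal adipocytes. In inguinal adipocytes it went from 2.89, 7.61 and 4.97 to 25, 27.6 and 20.2 FPKM, so it rose in both with no overlap, and its interaction was 3.90 ± 0.51 (adjusted p = 0.0029). Spp1 (ENSMUSG00000029304, chr5:104435111-104441053), which encodes the secreted phosphoprotein osteopontin, had the largest interaction of the named genes. It rose from 2.09, 1.18 and 1.91 to 32.2, 27.9 and 11.8 FPKM in epididymal adipocytes and fell from 4.74, 11.8 and 10.5 to 1, 1.04 and 0.536 in inguinal ones. The inguinal normal-diet libraries were all above the inguinal high-fat ones, and the interaction was 6.09 ± 0.57 (adjusted p = 0.00099; 6.56 without inguinal normal-diet libraries 0 and 2 and 6.52 with the covariate). Slc37a2, a sugar-phosphate exchanger of macrophages, rose in both depots (4.17 and 1.06; interaction 3.11). Capg, an actin-capping protein, rose from 18.9, 32.4 and 20.2 to 252, 265 and 199.8 FPKM in epididymal adipocytes, with inguinal values of 37 to 48.3 and 42.2 to 55.6 FPKM on the normal and high-fat diets (interaction 3.15, adjusted p = 0.0013). 

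Not all members of the lipid-associated list had an interaction call. Mmp12, a macrophage elastase, rose in both depots (4.78 in epididymal and 4.62 in inguinal adipocytes), with an interaction of 0.16 ± 0.39 (adjusted p = 0.86). Trem2, the lipid receptor that names these cells, missed the threshold at 2.56 ± 0.84 (adjusted p = 0.09). It went from 2.78, 6.34 and 5.47 to 132, 154 and 90.2 FPKM in epididymal adipocytes. In inguinal ones it went from 0.941, 4.68 and 11.5 to 17.2, 23.4 and 13.8 FPKM. Of the general macrophage markers, Adgre1, which encodes F4/80, had 1.45 ± 0.52 (adjusted p = 0.12). Cd163, a marker of resident macrophages, fell in epididymal adipocytes (-2.55), with an interaction of -1.73 (adjusted p = 0.3). Other genes that rose in epididymal adipocytes included Dhrs9, a retinol dehydrogenase (3.46), Basp1 (3.11), Tm4sf19 (2.84) and Rgs1 (3.23), all with adjusted p-values of 0.018 or below for the interaction. Dhrs9 had 0.223, 0.389 and 0 FPKM in epididymal normal-diet and 12.1, 12.9 and 8.15 in epididymal high-fat libraries, against 0.327, 1.05 and 0.483 and 1.18, 1 and 1.2 in the inguinal ones.

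Lysosomal genes went the same way. Of 24 tested 10 had a higher interaction and none a lower one (among them Ctsa, Ctsh, Ctsk, Ctss, Ctsz, Gusb, Hexa, Lipa and Npc1; median 1.10); 18 rose in epididymal and 8 in inguinal adipocytes, and 2, Ctsh among them, fell in inguinal ones. Lipa, the lysosomal acid lipase, went from 29.2, 35.7 and 27 to 231, 208 and 148 FPKM in epididymal adipocytes and from 20.3, 28 and 28.7 to 54, 51.2 and 42.6 in inguinal ones (interaction 1.70 ± 0.30, adjusted p = 0.0081, and 0.11 with the covariate). Ctss, the antigen-processing protease cathepsin S, went from 43.4, 60.4 and 50.7 to 495, 473 and 332 FPKM in epididymal adipocytes, and its inguinal values of 73.4, 63 and 98.7 and 88.8, 93.7 and 62.6 FPKM overlapped (interaction 2.99 ± 0.34, adjusted p = 0.0024). The count of 10 was 5 without epididymal high-fat library 0 or 1 or inguinal high-fat library 2, 6 without epididymal normal-diet library 0 or 2, 11 without inguinal normal-diet libraries 0 and 2, 3 with the covariate and 0 after rescaling outside the mitochondrial genome, where the median was still above 0 (0.57).

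The promoters of the higher calls held a known octamer in a larger share than those of all genes, which is given as a description with no test, for an octamer chosen with results known. The octamer GAGGAAGT, a form of the site that ETS-family factors such as PU.1, a regulator of myeloid and B cells, are known to bind, was looked for on both strands (its reverse complement is ACTTCCTC; no other motif was searched, so none overlaps it) in RefSeq promoter windows of 300 bases on GRCm38.p6. It was in 3.28% of 27025 windows, in 3.33% of the 10641 tested genes with a window, in 10.9% of the 523 higher calls with one (57 genes) and in 2.04% of the 245 lower calls with one (5 genes). The letters describe these windows and do not show binding. Of 49 named higher genes with a window 8 held it; the 3 shown, chosen after their values were seen, are those among them whose interactions were also called with the covariate. Each is read 5′ to 3′ on the gene's strand up to its start (to the end of the match in Ctss), with the match in capitals. The Spp1 stretch is chr5:104434911-104435110 on the plus strand with the match at base -113 from the start, the Vav1 stretch chr17:57278900-57279099 on the plus strand with the match at -11, and the Ctss stretch chr3:95526586-95526791 on the plus strand with the match, in reverse, at -2.
Spp1: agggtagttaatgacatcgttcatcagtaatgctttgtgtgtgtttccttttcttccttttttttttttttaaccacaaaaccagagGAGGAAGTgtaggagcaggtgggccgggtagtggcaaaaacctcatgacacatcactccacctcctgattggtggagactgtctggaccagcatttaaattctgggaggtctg
Vav1: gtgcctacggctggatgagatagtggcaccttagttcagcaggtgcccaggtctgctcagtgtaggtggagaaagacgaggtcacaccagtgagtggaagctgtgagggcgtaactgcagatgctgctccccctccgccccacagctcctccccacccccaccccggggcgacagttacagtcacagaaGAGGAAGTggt
Ctss: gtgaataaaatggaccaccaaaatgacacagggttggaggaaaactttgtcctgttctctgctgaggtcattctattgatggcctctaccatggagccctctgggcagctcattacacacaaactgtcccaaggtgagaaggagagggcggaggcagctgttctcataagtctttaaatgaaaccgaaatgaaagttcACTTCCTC

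Vav1, a signalling protein of blood cells, differs from Ctss in how its interaction arose. It rose in epididymal adipocytes from 1.4, 2.99 and 1.15 to 9.07, 8.14 and 6.14 FPKM and fell in inguinal ones from 15.1, 5.3 and 24.9 to 1.9, 1.81 and 1.11, with an interaction of 4.55 ± 0.66 (adjusted p = 0.0041). The highest of its inguinal values were in libraries 0 and 2, and without them the interaction was 3.37 (adjusted p = 0.0099). The same crossing was seen for other genes of white blood cells: Nckap1l, a subunit of the actin-remodelling WAVE complex (3.86), the phosphatase Ptpn6 (4.72), Sema4d (5.23) and Slfn2 (4.18). With Vav1 these 5 genes rose in epididymal and fell in inguinal adipocytes; they were named because they passed both fits on the lymphocyte libraries.

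Inflammatory signals also leaned to epididymal adipocytes. Of 21 cytokine and chemokine genes 6 were called higher (Tnf, Il1rn, Il10, Ccl4, Ccl5 and Osm) and 1 lower (Nos2), with a median of 1.87. In epididymal adipocytes 12 of the 21 rose, and in inguinal ones 4. The 6 higher calls were 3 without epididymal high-fat library 0 or 1, epididymal normal-diet library 0 or 2 or any 1 inguinal high-fat library, 8 without inguinal normal-diet libraries 0 and 2, and 2 with the covariate. Tnf, the tumour necrosis factor gene, went from 0.181, 0.278 and 0.183 to 19.7, 13.9 and 6.68 FPKM in epididymal adipocytes and from 1.55, 0.763 and 2.9 to 5.29, 3.81 and 2.64 in inguinal ones (interaction 3.11 ± 0.59, adjusted p = 0.012, and 0.056 without inguinal normal-diet libraries 0 and 2). Il1rn, the interleukin-1 receptor antagonist, went from 2.5, 3.15 and 2.94 to 38, 46.1 and 28.1 FPKM in epididymal adipocytes and from 1.21, 3.54 and 1.9 to 4.28, 6.57 and 5.5 in inguinal ones. Its interaction was 2.27 ± 0.43 (adjusted p = 0.011), and it was called in every leave-one-out fit and with the covariate. Nos2, the inducible nitric oxide synthase, went the other way, from 3.31, 3.36 and 4.46 to 0.193, 0.714 and 0.459 FPKM in epididymal adipocytes, with inguinal values of 1.54 to 3.29 and 2.89 to 3.03 FPKM (interaction -2.38, adjusted p = 0.0079). Il1r2, the decoy interleukin-1 receptor, owed its interaction to inguinal adipocytes. It fell there from 9.44, 28.4 and 9.12 to 1.05, 0.442 and 0.53 FPKM, highest in library 1, the lowest of the 3 in lymphocyte markers, and was at 0.188, 0 and 0 and 0.508, 0.825 and 0.979 FPKM in epididymal adipocytes on the normal and high-fat diets (interaction 4.79 ± 0.57, adjusted p = 0.0024). Ccl5 and Osm fell in inguinal adipocytes and had no epididymal call.

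Of 18 cell cycle genes 17 rose with diet in epididymal adipocytes. By limma none was called in inguinal ones, where 2 had an unadjusted p under 0.05, and the difference between depots was called for 9, all higher (Mki67, Ccnb2, Ccna2, Birc5, Plk1, Mcm3, Mcm5, Mcm6 and Pcna; median 1.97). Mki67, a marker of dividing cells, went from 0.378, 0.671 and 0.309 to 2.98, 7.33 and 2.85 FPKM in epididymal adipocytes and was at 1.49, 0.283 and 1.72 and 0.675, 1.21 and 1.2 in inguinal ones. Pcna, the DNA polymerase clamp, went from 18.7, 22.3 and 18.4 to 55.4, 59.8 and 42 FPKM in epididymal adipocytes, with overlapping inguinal values of 25, 16.3 and 27.3 and 18.8, 13.1 and 12.8 (interaction 1.96 ± 0.33, adjusted p = 0.007). The 9 calls became 14 without inguinal normal-diet library 1, 3 to 5 without epididymal high-fat library 0 or 1, epididymal normal-diet library 0 or inguinal high-fat library 0 or 2, 3 without inguinal normal-diet libraries 0 and 2, and 0 with the covariate or after rescaling outside the mitochondrial genome. The cells that carry these transcripts were not tested; macrophage markers were highest in the same 3 libraries.

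Cholesterol synthesis genes rose in both depots, and a few of them differed between the depots. Of 24 genes 19 rose in epididymal and 14 in inguinal adipocytes, and 3 had a higher interaction, among them Dhcr7 and Srebf2 (median 0.46; -0.17 after rescaling outside the mitochondrial genome, where none was called). Dhcr7 (ENSMUSG00000058454, chr7:143823167-143848410), the enzyme of the last step of cholesterol synthesis, went from 3.84, 3.28 and 3.02 to 26.2, 28.7 and 25.1 FPKM in epididymal adipocytes. In inguinal adipocytes it was at 6.48, 6.37 and 9.11 FPKM on the normal diet and 9.77, 12.8 and 9.84 on the high-fat diet, and the interaction was 2.27 ± 0.27 (adjusted p = 0.0024), called in all leave-one-out fits and with the covariate. Srebf2, the master transcription factor of the pathway, rose in epididymal adipocytes from 6.62, 9.36 and 7.92 to 14.9, 13.9 and 11.4 FPKM and fell in inguinal ones from 15.9, 11.1 and 21 to 7.78, 7.83 and 7.61, highest in normal-diet libraries 0 and 2. Its interaction was 1.68 (adjusted p = 0.011) and 0.86 with the covariate (adjusted p = 0.29). Hmgcs1, an early enzyme, leaned the other way, at -0.54 ± 0.47 (adjusted p = 0.56).

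**Figure D4:**
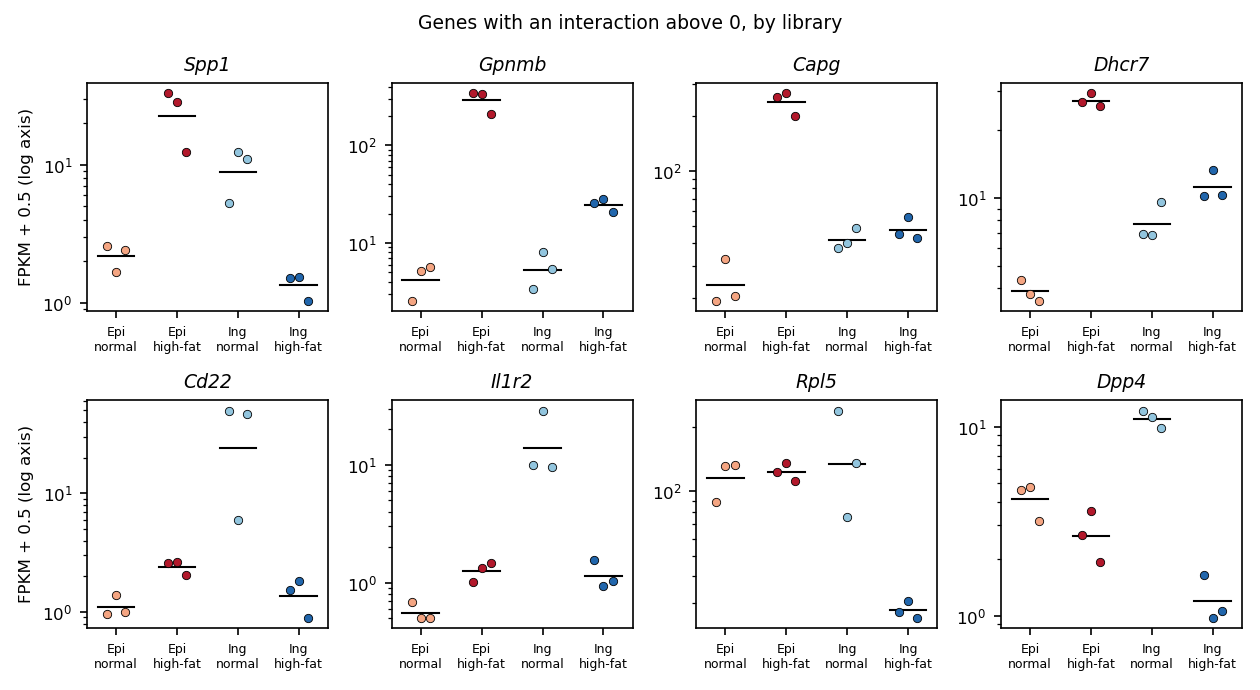
FPKM + 0.5 on a log axis for 8 genes with an interaction above 0, in each library of the 4 groups; the bar is the mean on the log scale. Gpnmb, Capg and Dhcr7 are highest in the 3 epididymal high-fat libraries, whereas Cd22, Il1r2, Rpl5 and Dpp4 differ mainly between the inguinal diets.

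Many of the largest higher interactions came from the inguinal side. All 15 B lymphocyte and all 16 T lymphocyte markers fell in inguinal adipocytes. By limma none was called in epididymal ones, where 2 of each list had an unadjusted p under 0.05. The interaction was called higher for 7 and 3 of them, with medians of 3.43 and 3.33. Cd22, a B cell lectin, was at 49.2, 5.47 and 46 FPKM in inguinal normal-diet libraries 0, 1 and 2 and at 1.04, 1.32 and 0.391 in the high-fat ones. In epididymal adipocytes it was at 0.462, 0.888 and 0.503 and 2.07, 2.13 and 1.57 FPKM, and its interaction was 5.28 ± 0.91 (adjusted p = 0.0079). Without inguinal normal-diet libraries 0 and 2 it was 3.27, and with the covariate 2.07 (adjusted p = 0.11). Cd37, a tetraspanin of B cells (5.09), Cd6 (4.32) and Lat (5.21), both of T cell signalling, Ptprc, the common leukocyte antigen (4.73), and B4galnt1, a ganglioside enzyme (4.82), also fell in inguinal adipocytes with no epididymal call. Il7r, the interleukin-7 receptor (5.34), Cd180, a Toll-like receptor homologue (4.35), and Galnt6 (4.73) were instead called as rising in epididymal adipocytes; of these Galnt6 also fell in inguinal ones. All 8 of these genes had their highest inguinal value in normal-diet library 0 or 2, and none was called with the covariate. Without these libraries the B and T lymphocyte medians were 1.22 and 1.07 with 3 and 2 calls, and with the covariate, which is made from these genes, 0.12 and -0.42 with 0 calls. Without inguinal normal-diet library 1, the lowest of the 3 in these markers, 15 of each list were called. The 7 B lymphocyte calls were 2 to 4 without epididymal high-fat library 0 or 1, epididymal normal-diet library 0 or 2, inguinal high-fat library 0, 1 or 2 or inguinal normal-diet library 2, and the 3 T lymphocyte calls 1 without epididymal high-fat library 0 or 1 or epididymal normal-diet library 2.

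All 28 ribosomal protein genes fell in inguinal adipocytes, and by limma none was called in epididymal ones, where 0 had an unadjusted p under 0.05. Their summed FPKM was 11850.0, 5472 and 13800.0 in inguinal normal-diet libraries 0, 1 and 2 and 2909 to 3972 in the inguinal high-fat group. A higher interaction was called for 9 (median 1.63; 26 calls without inguinal normal-diet library 1 and 1 or 2 without any other library, 2 after quantile normalization, 1 without inguinal normal-diet libraries 0 and 2, and 0 with the covariate). Rpl5 was at 238, 75 and 136 FPKM in inguinal normal-diet libraries 0, 1 and 2 and at 26.8, 30.2 and 25.1 in high-fat ones, against 88.4, 131 and 132 and 123, 136 and 111 in epididymal ones (interaction 2.37, adjusted p = 0.013). These genes have near-identical pseudogenes that can share their reads. Lymphocyte markers were high in the same inguinal normal-diet libraries 0 and 2; their part in the ribosomal result was not tested.

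Most interferon-response genes and 8 of 15 fibroblast and preadipocyte markers also fell in inguinal adipocytes. Their sums were highest in the inguinal normal-diet library with the lowest lymphocyte markers of the 3: 233, 428 and 352 FPKM for the interferon list and 993, 2224 and 853 for the fibroblast list in inguinal normal-diet libraries 0, 1 and 2. Of 17 interferon-response genes 14 fell in inguinal and 4 in epididymal adipocytes, and 4 had a higher interaction (Ifit3, Mx1, Oas1a and Irf9; median 0.76; 1 or 2 calls without any library other than epididymal normal-diet library 0 or 1 or inguinal normal-diet library 1, 2 without inguinal normal-diet libraries 0 and 2, and 0 with the covariate). Irf9, part of the interferon-activated transcription complex, fell from 18.8, 23.1 and 26.2 to 5.19, 8.31 and 7.43 FPKM in inguinal adipocytes and was at 8.85, 10.4 and 9.03 and 7.84, 7.98 and 6.51 in epididymal ones (interaction 1.32 ± 0.29, adjusted p = 0.02). Oas1a, an antiviral enzyme, fell from 4.66, 5.62 and 3.25 to 1.02, 1.19 and 0.878 FPKM in inguinal adipocytes (2.55, adjusted p = 0.0081). Among 15 fibroblast and preadipocyte markers Dpp4 and Cd55, both markers of early progenitors, were called higher. Just 1 of the pair was called without any library other than epididymal normal-diet library 1 or inguinal normal-diet library 1 or 2. Without inguinal normal-diet library 1 there were 3 higher and 3 lower calls. Unlike the list sum, Cd55 was lowest in library 1 of the inguinal normal-diet group, at 64.45, 31.25 and 47.37 FPKM in libraries 0, 1 and 2. Its interaction of 1.75 was 1.21 without libraries 0 and 2 and 0.85 with the covariate (limma adjusted p = 0.52). Dpp4 fell from 11.6, 10.7 and 9.3 to 1.14, 0.473 and 0.557 FPKM in inguinal adipocytes and was at 4.14, 4.31 and 2.68 and 2.17, 3.06 and 1.42 in epididymal ones, with an interaction of 2.56 ± 0.41 (adjusted p = 0.0066; 2.58 without inguinal normal-diet libraries 0 and 2, adjusted p = 0.022, and adjusted p = 0.088 with the covariate). Thy1 and Icam1 also fell in inguinal adipocytes with no epididymal call and had interactions of 1.39 and 1.39 (adjusted p = 0.34 and 0.058). In inguinal normal-diet libraries 0, 1 and 2 Thy1 was at 34.99, 17.98 and 104.2 FPKM, the order of the T lymphocyte sums. The part of lymphocytes in its fall was not tested. Pdgfra, Pi16, Ly6a and Dcn fell in both depots, and their interactions were -0.73, -0.28, -0.61 and -1.09 (adjusted p of 0.31 to 0.89). Of the other 7, Cd34 fell in epididymal adipocytes, 6 had no diet call, and 6 of all 15 had an unadjusted interaction p under 0.05.

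Several lists of the adipocyte's metabolic programmes had no interaction call, which with 3 pools per group does not show equal diet effects. None of 17 genes of de novo lipogenesis, 19 of triglyceride synthesis and lipid droplets, 12 of lipolysis, 22 of fatty acid oxidation, 24 of the TCA cycle, 37 of the respiratory chain, 17 thermogenic genes, 14 adipocyte transcription factors, 14 adipocyte markers or 25 collagen and matrix genes had an interaction call by limma, nor did 18 of the unfolded protein response. Over these 11 lists 27 of 207 genes had an unadjusted p under 0.05 by limma, 5 of them higher, against 3295 of all 14959 genes tested. Their medians ran from -0.69 for adipocyte markers to 0.18 for the unfolded protein response. With 1 library left out, adipocyte markers, lipolysis genes and adipocyte transcription factors each had up to 5 lower calls. The TCA cycle list had up to 4 lower calls and triglyceride synthesis up to 2. The respiratory chain, thermogenic, collagen and unfolded protein lists had up to 1 lower call each. De novo lipogenesis and the collagen list had up to 1 higher call each. In the TCA cycle list 9 of 24 genes rose in inguinal and 1 in epididymal adipocytes, with a median interaction of -0.50. Fatty acid oxidation had a median of -0.54: 12 of its 22 genes rose in inguinal and 1 in epididymal adipocytes. That list had 4 lower calls after quantile normalization and 11 with array weights, 8 without inguinal normal-diet library 1, and a median of -0.06 without inguinal normal-diet libraries 0 and 2. Fasn, the fatty acid synthase, rose in epididymal adipocytes (1.22) and had a diet effect of 0.47 in inguinal ones, an interaction of 0.74 ± 0.40 (adjusted p = 0.31). Ucp1, the thermogenic uncoupling protein, lay between 0.04 and 3.29 FPKM in 11 libraries and at 36.1 in inguinal high-fat library 2, and its interaction of -0.41 had an SE of 1.58. Of 25 collagen and matrix genes 13 rose in epididymal and 13 in inguinal adipocytes, and 6 had a higher interaction without inguinal normal-diet libraries 0 and 2.

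Single members of other pathways had an interaction call, where 7.22% of all genes tested had one. Glycolysis had 1 call of 15, immediate early genes 1 of 19, and Wnt and TGF-beta family signals 1 of 20. Insulin signalling had 1 higher and 1 lower call of 16, fatty acid uptake 1 and 1 of 12, and hypoxia genes 1 and 1 of 13. With so few calls per list, the genes below are single genes and not a result about a pathway. In branched-chain amino acid catabolism Acadsb, an acyl-CoA dehydrogenase, was the 1 lower call of 23 (-1.19, adjusted p = 0.04; 2 of 12 leave-one-out fits). The list had a median of -0.75, 5 and 8 lower calls after quantile normalization and coding-gene rescaling, 14 without inguinal normal-diet library 1, and 0 without any other library except epididymal high-fat library 2. Slc2a1, the basal glucose transporter, rose in epididymal adipocytes and fell in inguinal ones (1.50, adjusted p = 0.02, 9 of 12 leave-one-out fits). It was at 6.49, 4.94 and 9.52 FPKM in inguinal normal-diet libraries 0, 1 and 2. Grb14, an inhibitor of the insulin receptor, rose more in inguinal adipocytes (-1.42, adjusted p = 0.038, 1 of 12 leave-one-out fits). Without inguinal normal-diet libraries 0 and 2 the interactions of Slc2a1 and Grb14 were 1.08 and -0.87. With the covariate they were 0.79 and -0.45 (adjusted p = 0.4 and 0.68). The glycolytic enzyme Eno1 was at 1.17 and Acsl5, which activates fatty acids, at 0.90, called in 2 and 3 of the 12 leave-one-out fits. Ndrg1, a hypoxia-induced gene, fell in both depots (-2.37 in epididymal and -0.79 in inguinal adipocytes; interaction -1.58, adjusted p = 0.016). The glutathione transferases Gsta3 and Gsta4 fell in epididymal adipocytes (-1.84 and -2.01), with interactions of -2.37 and -2.07, called in 12 and 4 of 12 such fits and in neither fit on the lymphocyte libraries. Of 17 circadian clock genes Arntl, the activator of the clock, was called higher (1.69) and Per3 and Hlf lower (-1.47 and -2.10), in 11, 5 and 3 of 12 such fits; tissue collection times were not given in the labels. Klf4 (-1.65) and Tgfb1 (1.79) were called in 2 and 3 of the 12 leave-one-out fits.

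Noncoding transcripts made up few of the calls. Of 548 long noncoding RNAs tested 4 had a higher and 4 a lower interaction, against 4.8% and 2.42% of all genes tested. Protein-coding genes made up 669 of the 718 higher and 339 of the 362 lower calls. AI662270 (ENSMUSG00000087107) rose from 4.61, 4.88 and 4.41 to 15.9, 20.6 and 9.81 FPKM in epididymal adipocytes and fell from 15.9, 9.31 and 30.9 to 4.73, 4.8 and 3.31 in inguinal ones (3.44 ± 0.53, adjusted p = 0.0052; 12 of 12 leave-one-out fits, and 1.91 with the covariate, adjusted p = 0.12), with its highest inguinal values in normal-diet libraries 0 and 2. Gm26740 (3.32) and A530040E14Rik (2.56) were called higher, as was Gm8995 (3.52), annotated as miscellaneous RNA, all 3 with their highest inguinal values in normal-diet libraries 0 and 2 and no call without those libraries or with the covariate. On the lower side Airn, an imprinted antisense transcript of the Igf2r locus, fell in epididymal adipocytes from 4.34, 4.68 and 11.6 to 1.26, 0.769 and 2.03 FPKM (-2.11, adjusted p = 0.039, 5 of 12 leave-one-out fits). Without a stated strand setting its reads cannot be told apart from those of the gene it overlaps. Gm15912, Gm4876 and A530053G22Rik were at -3.05, -2.64 and -1.52, and 5 to 10 of the 12 leave-one-out fits called each of these 3.

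**Figure D5:**
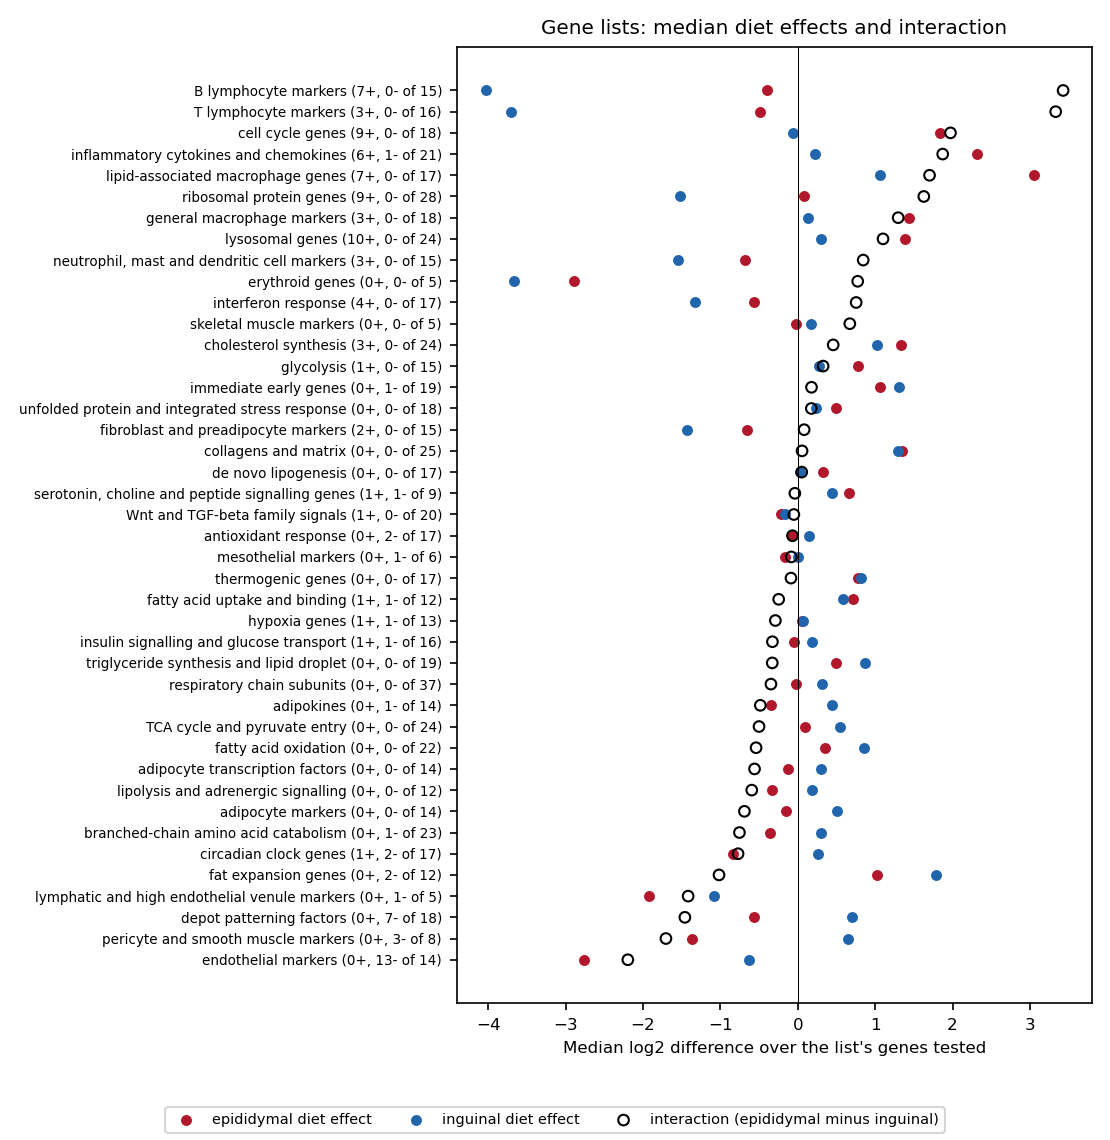
Median log2 difference over the tested genes of each list with 5 or more: epididymal diet effect (red), inguinal diet effect (blue) and interaction (open circles), with the number of genes called higher (+) and lower (-) of those tested beside each name. The 2 lymphocyte lists and the ribosomal list get their position from inguinal loss, the endothelial list from epididymal loss, and the macrophage, lysosomal and cell cycle lists from epididymal gain.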

How the data were processed

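Gene expression was measured by RNA-seq of poly(A) RNA in 12 white adipocyte libraries; 2 brown libraries, 1 per diet, were left out. The authors deposited FPKM values for 38553 Ensembl genes per library; the submitters' processing notes name TopHat2 2.0.9, Cuffdiff 2.1.1 and mm10 without giving their roles, and the annotation and any scaling between libraries are not given in the sources used here. Symbols were found for 36638 genes in reference tables, with coordinates from RefSeq on GRCm38.p6.

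Values were taken as log2(FPKM + 0.5) and fitted with limma 3.58.1 (R 4.3.3; group means, trended empirical Bayes, 8 residual degrees of freedom) over the 14959 genes at 0.5 FPKM or more in at least 3 libraries, with Benjamini-Hochberg adjustment over all of them. Groups come from the labels, which do not say that the libraries of a group were separate cohorts, so p-values measure the spread between these pools. The interaction contrast, 44 gene lists and the named genes were chosen with earlier results of these data known. Named genes are, among calls, up to 12 each way with the largest interaction (mean of at least 2 FPKM, diets apart in a depot), up to 12 each way that also passed both fits on the lymphocyte libraries, up to 4 per combination of depot calls, up to 2 each way per list, up to 4 noncoding RNAs each way, and Lep, Adipoq, Mest, Fasn, Ucp1 and Adgre1; other list members named in the text were chosen after their values were seen. Alternatives numbered 25: other pseudocounts, filters and scalings, array weights, a replicate block, the 2 fits on the lymphocyte libraries, each of the 12 libraries left out in turn, and, chosen after seeing the data, rescaling to protein-coding genes outside the mitochondrial genome and a fit of protein-coding genes alone. The code was tested on simulated data. A few genes that the lists or the rule take in are not reported here. Depth is unknown, so no counting interval is given.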

Additional observations from a re-analysis of the deposited data

Results flagged for a closer look

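The named genes listed here met a rule on group differences: their diet effects in the 2 depots differed by the limma interaction test (adjusted p under 0.05 over 14959 genes). There are 106, and the number after each gene is its interaction on the log2 scale, above 0 where the epididymal effect was the higher one. Groups of 3 libraries were too small for a check of single outlying libraries, and no explanation was weighed. Genes that rose in epididymal and fell in inguinal adipocytes were Spp1 (6.09), Sema4d (5.23), Galnt6 (4.73), Ptpn6 (4.72), Vav1 (4.55), Slfn2 (4.18), Nckap1l (3.86), AI662270 (3.44), Srebf2 (1.68) and Slc2a1 (1.50). Those that rose in both, with the larger effect in epididymal adipocytes, were Gpnmb (3.90), Rgs1 (3.23), Slc37a2 (3.11), Tm4sf19 (2.84), Il1rn (2.27) and Lipa (1.70). Those that rose in epididymal adipocytes with no inguinal call were Il7r (5.34), Bcl2a1b (4.79), Cd180 (4.35), Dhrs9 (3.46), Fcgr1 (3.31), Capg (3.15), Tnf (3.11), Basp1 (3.11), Ctss (2.99), Npy (2.60), Mcm3 (2.29), Dhcr7 (2.27), Tyrobp (2.20), Pcna (1.96), Tgfb1 (1.79), Arntl (1.69), Eno1 (1.17) and Acsl5 (0.90). Those that fell in inguinal adipocytes with no epididymal call were Cd22 (5.28), Lat (5.21), Cd37 (5.09), B4galnt1 (4.82), Il1r2 (4.79), Ptprc (4.73), Cd6 (4.32), Gm8995 (3.52), A530040E14Rik (2.56), Dpp4 (2.56), Oas1a (2.55), Cd74 (2.47), Rpl5 (2.37), Rpl13 (2.02), Cd55 (1.75) and Irf9 (1.32). Higher interactions without a diet call in either depot were found for Gm26740 (3.32), Cd72 (3.23), Ptpn22 (3.23), Fyb (3.18), Ly86 (3.10) and H2-Aa (2.22). A higher interaction with falls in both depots was found for Plac8 (2.58). Genes that fell in epididymal and rose in inguinal adipocytes were Ndufa4l2 (-4.18), Rgs5 (-3.94), Cox4i2 (-3.61), Irx3 (-2.91) and Apln (-2.65). Those that fell in epididymal adipocytes with no inguinal call were Ppp1r14a (-3.99), Kcnj8 (-3.37), Aspn (-3.36), Mecom (-3.23), Bcl6b (-3.08), Gpihbp1 (-3.07), Gm15912 (-3.05), Cdh13 (-2.98), Notch4 (-2.97), Cmtm8 (-2.91), Cldn5 (-2.84), Meox2 (-2.83), Sox7 (-2.83), Adgrf5 (-2.83), Btnl9 (-2.82), Lmo7 (-2.79), Sept4 (-2.77), Kdr (-2.45), Nos2 (-2.38), Gsta3 (-2.37), Tie1 (-2.34), Airn (-2.11), Hlf (-2.10), Gsta4 (-2.07), Wt1 (-1.77), Hoxd8 (-1.52), Flt4 (-1.50), Per3 (-1.47) and Acadsb (-1.19). Those that rose in inguinal adipocytes with no epididymal call were Prnd (-3.16), Tma7-ps (-2.76), Gm4876 (-2.64), Rpl39l (-2.56), C6 (-2.46), Klf4 (-1.65) and A530053G22Rik (-1.52). Those that rose in both, with the larger effect in inguinal adipocytes, were Mest (-2.71), Oxtr (-2.01), Grb14 (-1.42) and Npr3 (-1.09). Those that fell in both, with the larger effect in epididymal adipocytes, were Sult1e1 (-3.02), Cyyr1 (-2.52), Adgrl4 (-2.52) and Ndrg1 (-1.58).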

How the results depend on the processing

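The main counts were 1080 interaction calls (718 higher, 362 lower), 2918 epididymal and 2914 inguinal diet calls, and 83 interaction calls with opposite diet calls in the 2 depots. With no filter there were 695 interaction calls, 423 higher, and 33 opposite. Lower calls numbered 605 after quantile normalization and 607 after rescaling to protein-coding genes outside the mitochondrial genome, a setting chosen after seeing the data. Rescaling all features outside the mitochondrial genome gave 222 interaction calls (163 higher, 59 lower), 570 epididymal, 1226 inguinal and 4 opposite calls; 1 feature, ENSMUSG00000093077, held 6.72 to 91.2% of the sum it uses. Array weights gave 2836 interaction calls (1512 higher, 1324 lower), 5110 epididymal, 4612 inguinal and 257 opposite calls. Without inguinal normal-diet libraries 0 and 2, with fewer samples, there were 999 inguinal and 41 opposite calls. The lymphocyte covariate left 191 interaction calls (89 higher, 102 lower), 145 inguinal and 3 opposite calls. Leaving out each library in turn gave 433 to 2627 interaction calls (252 to 1618 higher, 164 to 1009 lower), 1819 to 3665 epididymal, 1642 to 4727 inguinal and 28 to 270 opposite calls, highest for the interaction without inguinal normal-diet library 1; the cause of these shifts was not tested.

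With a replicate block there were 1152 interaction calls, 960 of them among the 1080. Same-numbered libraries of different groups deviated together with correlations of -0.0961 to 0.272, over 0.1 in 9 of 18 pairs and in 2 of 36 pairs with different numbers. All 3 pairs of the high-fat groups were over 0.1 (0.184, 0.111 and 0.146), a hint from the data and not from the labels; since not every pair of the 4 groups was, the block was kept as an alternative. Under it 7 named genes lost their call and 1, Adgre1, gained one (adjusted p = 0.042). Of 113 named genes, 72 were on the weaker side of the threshold with the covariate, 63 after rescaling outside the mitochondrial genome, 34 without inguinal normal-diet libraries 0 and 2, 28 with no filter, 12 after quantile normalization, 10 after coding-gene rescaling and 1 to 38 with a library left out; no named gene changed sign past the threshold in any alternative run. Limits are the unknown depth, 3 pooled libraries per group, marker RNA of lymphocytes in 1 group, and FPKM values whose scaling between libraries is not given.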

Other observations

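Of 129 antigen receptor gene segments tested, which mark lymphocyte clones, 18 had a higher interaction and 0 a lower one, against 4.8% and 2.42% of all genes tested. Their calls were not counted in the 2 fits on the lymphocyte libraries. Class II antigen presentation genes were split between both depots. Cd74, the class II invariant chain, was at 286, 593 and 302 FPKM in epididymal normal-diet and 788, 806 and 546 in epididymal high-fat libraries, and at 1070.0, 350.0 and 1136 and 252, 335 and 199 in inguinal normal-diet and high-fat ones, where libraries 0 and 2 were high (2.47, limma adjusted p = 0.034). Without those libraries it was 1.37 (adjusted p = 0.18), and it was called in 3 of 12 fits with a library left out. H2-Aa (2.22, and 1.05 without those libraries, adjusted p = 0.26; 2 of 12 fits) and H2-Ab1 were the other 2 calls of 15 neutrophil, mast and dendritic cell markers (median 0.85). Erythroid genes fell in both depots, 5 of 5 in epididymal and 4 of 5 in inguinal adipocytes, with sums of 1098, 3382 and 3483 and 273, 419 and 277 FPKM in the epididymal normal-diet and high-fat groups and 1072, 316 and 4849 and 63.2, 149.9 and 114 in the inguinal ones; by limma no interaction was called and 0 had an unadjusted p under 0.05. Skeletal muscle (5 tested) and mammary or skin epithelial markers (1 tested) had no interaction call, with 2 and 0 at an unadjusted p under 0.05, and Wt1 was the 1 call of 6 mesothelial markers.

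Plac8, a cysteine-rich protein of immune cells, fell in both depots, from 6.22, 8.34 and 8.59 to 1.79, 2.33 and 0.232 FPKM in epididymal and from 60.5, 94 and 44.5 to 2.96, 1.95 and 0.772 in inguinal adipocytes, and was called higher (2.58, adjusted p = 0.046). That call held in 3 of 12 fits with a library left out, and was lost without inguinal normal-diet libraries 0 and 2 (adjusted p = 0.068) and with the lymphocyte covariate (0.18). C6, a complement component, rose in inguinal adipocytes from 2.8, 7.61 and 2.04 to 11.9, 12.9 and 10.2 FPKM and was at 28.3, 45.4 and 52.8 and 19.1, 19.5 and 27.3 in epididymal ones, which had the higher levels on the normal diet (-2.46, adjusted p = 0.018; 10 of 12 such fits, and -1.47 without inguinal normal-diet libraries 0 and 2, adjusted p = 0.071). Rpl39l, a ribosomal protein gene known from testis, went against the ribosomal list: it rose in inguinal adipocytes from 2, 1.36 and 1.05 to 12, 6.05 and 8.11 FPKM and was at 0.575 or below in all epididymal libraries (-2.56, adjusted p = 0.015, called in 12 of 12 such fits; adjusted p = 0.15 with the covariate). Its sequence is close to that of another ribosomal protein gene, so its reads are uncertain.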
